A study of Mus musculus with 96 samples.

Results

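The comparison set mouse bone marrow dendritic cells exposed to the ligand labelled Lps against cells exposed to the ligand labelled Pic, 4, 6 and 8 h into the exposure. Its members were the arrays titled with these ligands at these hours: 6 Lps arrays and 6 Pic arrays, 12 of the 96 arrays of the series, with 2 arrays for each ligand and hour. The study followed dendritic cells over a day of stimulation with 5 ligands of Toll-like receptors and measured messenger RNA on one-colour Affymetrix mouse arrays.

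The groups were primary bone marrow dendritic cells with Lps, the same cells with Pic, and unstimulated cells, for which 1 array at each of 4, 6 and 8 h was used here. The labels abbreviate the ligands. From knowledge of the study, Lps is taken as lipopolysaccharide and Pic as polyinosinic-polycytidylic acid, poly(I:C). The dose of either ligand, the mouse strain, and the age and sex of the mice are not given in the sources used here, nor do they say if the arrays of 1 group stem from different cultures or from pooled animals. Each p-value below, unless a smaller fit is named, is set against the spread within ligand and hour over the whole series. The unstimulated arrays, single at each hour, add nothing to that spread. Because the origin of the arrays is not given, the spread may be technical. The cells are a culture grown from bone marrow, so each value is an average over whatever cells the culture held. On the plate, Lps lay in rows A and B and Pic in rows C and D, so the ligand and the position on the plate cannot be told apart.

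Lipopolysaccharide is a glycolipid of the outer membrane of Gram-negative bacteria. It is sensed at the cell surface by TLR4 with its partners Cd14 and Ly96 (MD-2), which signals through the adaptor MyD88, known for NF-kB activation and inflammatory cytokines, and through the adaptor TRIF, known for IRF3 activation and interferon-β. Poly(I:C) is a synthetic mimic of the double-stranded RNA made by many viruses. It is sensed in endosomes by TLR3, which signals through TRIF and not MyD88, and in the cytosol by the helicases MDA5 (Ifih1) and RIG-I.

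Values are intensities on a linear scale with a floor of 20, below which no level was given. Differences are Lps minus Pic on the log2(intensity + 1) scale, averaged over the differences at 4, 6 and 8 h, so 1 unit is close to 2-fold for bright genes and understates the change of dim ones and of those with arrays at the floor. Of 18858 probe sets, 10543 items were tested, made of 7741 named genes and 2802 probe sets without a single gene name, all called genes in the counts below. A gene was called when its limma p-value, adjusted by the Benjamini-Hochberg method over all 10543, was under 0.05 and its difference was at least 1 in size.

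Paired arrays of the same ligand and hour agreed closely, with Pearson r across genes between 0.9970 and 0.9977 and at most 2 genes more than 2-fold apart. No array stood apart from its pair. The first principal component of the 12 arrays held 59.1% of the variance and split the ligands, with Lps arrays between 20.4 and 25.0 and Pic arrays between -28.2 and -16.3. The second held 17.9% and ordered the arrays by hour within each ligand. The dendritic and myeloid markers were present: 12 of 12 were tested, with summed intensities of 39924 to 42421 on Lps arrays and 41646 to 43832 on Pic arrays, although Flt3 stood near the floor at means of 25 and 30. The tested markers of T (1 of 5 listed), B (1 of 5), NK (2 of 4) and erythroid cells (1 of 4) lay at or next to the floor. Of 4 plasmacytoid dendritic cell markers 2 were tested. Tcf4 had means of 396 with Lps and 282 with Pic, and Ccr9 had 46 and 40. Of 5 fibroblast markers 1 was tested, Dcn, with means of 41 and 32. None of these was called between the ligands. The 5 tested neutrophil markers summed to 2349 to 2870 on Lps arrays and to 3678 to 4913 on Pic arrays, led by S100a8 with means of 1555 and 2594. None of the 5 was called, and their part in the results below was not tested. For any gene, fewer cells of a type and less RNA per cell cannot be told apart in such bulk samples.

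Lps and Pic differed in 393 of 10543 genes (3.73%). Of these, 204 were higher with Lps (1.93%) and 189 were lower (1.79%). Adjusted p-values were under 0.05 for many more, 2216 with a positive (21%) and 3296 with a negative difference of any size (31.3%), so the size threshold set these counts. At an unadjusted p under 0.05 and any size, 22.9% of all genes were higher and 33.4% lower. The higher genes had a median difference of 1.46 and reached 6.36, with 41 of 204 past 2 units. The lower genes had a median of -1.25 and reached -4.71, with 11 of 189 past 2 units. In 196 of the 204 and 178 of the 189 the 6 arrays of one ligand lay wholly on one side of the 6 arrays of the other. Over all genes tested, Lps arrays lay wholly above Pic arrays in 7.45% and wholly below in 10%. The median difference of all genes was -0.02.

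**Figure D1:**
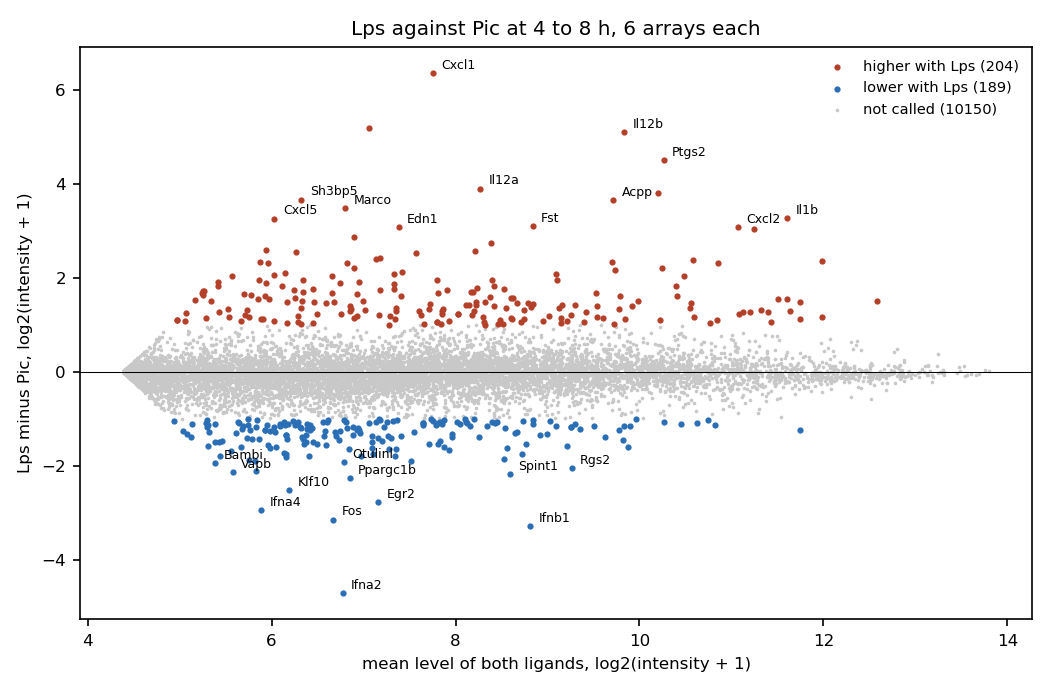
Difference between ligands (vertical axis, Lps minus Pic on the log2(intensity + 1) scale, mean of 4, 6 and 8 h) against the mean level of both ligands on the same log2 scale, 1 point per gene. The 204 genes higher with Lps and the 189 lower are coloured, and the 12 largest named differences each way carry their symbols, from 6.36 for Cxcl1 to -4.71 for Ifna2.

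Among the largest differences were genes with well-known roles. Higher with Lps were neutrophil-attracting chemokines, both interleukin-12 subunits, interleukin-1β and the prostaglandin enzyme Ptgs2. Lower with Lps were type I interferon genes and the transcription factors Fos, Egr2 and Klf10. Antiviral genes that interferon induces gave no call between the ligands, as described below with their test. The promoters of 3 genes of these patterns are shown, from RefSeq on build GRCm38.p6. Each runs from 250 bases before to 50 after the start and is read along the gene. Cxcl1 had the largest difference in favour of Lps, Ifnb1 encodes interferon-β and was lower with Lps, and Ifit1 is an antiviral gene raised by both ligands. Capitals mark matches to the NF-kB letters (GGG, any 5 bases, CC) or to the letters of the interferon-stimulated response element (GAAA, any 2 bases, GAAA), on either strand.
Cxcl1, chr5:90890995-90891294, + strand: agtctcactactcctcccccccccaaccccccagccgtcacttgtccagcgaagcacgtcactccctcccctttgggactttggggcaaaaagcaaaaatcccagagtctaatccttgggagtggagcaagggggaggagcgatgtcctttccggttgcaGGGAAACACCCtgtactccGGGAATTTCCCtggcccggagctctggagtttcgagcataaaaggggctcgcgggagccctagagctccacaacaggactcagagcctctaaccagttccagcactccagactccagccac
Ifnb1, chr4:88522745-88523044, - strand: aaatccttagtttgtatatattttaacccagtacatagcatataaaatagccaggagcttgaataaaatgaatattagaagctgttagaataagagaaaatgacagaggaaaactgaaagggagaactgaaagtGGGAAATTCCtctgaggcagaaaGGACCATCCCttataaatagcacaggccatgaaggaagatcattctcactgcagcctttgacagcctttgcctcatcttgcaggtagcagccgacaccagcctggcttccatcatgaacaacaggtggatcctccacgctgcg
Ifit1, chr19:34640639-34640938, + strand: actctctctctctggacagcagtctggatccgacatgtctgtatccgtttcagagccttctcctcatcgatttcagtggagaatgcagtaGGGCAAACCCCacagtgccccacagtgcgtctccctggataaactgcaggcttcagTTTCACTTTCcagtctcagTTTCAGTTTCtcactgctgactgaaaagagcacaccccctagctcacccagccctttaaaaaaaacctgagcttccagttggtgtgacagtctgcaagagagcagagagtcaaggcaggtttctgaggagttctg

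The Cxcl1 window held 4 matches to the NF-kB letters in 2 marked stretches, each with 2 overlapping matches. Ifnb1 held 2 separate matches. Ifit1 held 2 overlapping matches in a single stretch, together with 2 separate matches to the response element letters. The promoter of Il12b, not shown, was searched too and held 0 matches to either set of letters. Of 7741 named genes tested, 6336 had a promoter in the table. The response element letters were found in 4.17% of these, in 4.27% of the genes higher with Lps (5 of 117), in 7.94% of the genes lower with Lps (10 of 126) and in 38.7% of the antiviral gene list described below (12 of 31). The NF-kB letters are short and were common: they were found in 72.1% of the promoters of genes tested, in 70.1% of the genes higher with Lps and in 71.4% of those lower. A match is a description of the letters and not a binding site.

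Among the genes higher with Lps, Cxcl1, a chemokine that recruits neutrophils, had the largest fitted difference. Its lowest, median and highest intensities were 1687, 1974 and 2232 on Lps arrays, against 20, 20.4 and 28.7 on Pic arrays. With Pic it thus lay at or next to the floor, where the unstimulated arrays also lay (20, 20 and 20). The fitted difference was 6.36 ± 0.11 (SE; limma, adjusted p = 1.1e-39), with 2 of the 6 Pic arrays at the floor itself, which limits it. Il12b, the p40 subunit shared by interleukins 12 and 23, had intensities of 4345, 5148 and 5938 on Lps arrays and 72.8, 154 and 265 on Pic arrays, a difference of 5.11 ± 0.15 (limma, adjusted p = 6.3e-31). Ptgs2, the inducible cyclooxygenase of prostaglandin synthesis, had 4701, 5077 and 5424 with Lps and 64.1, 290.1 and 607 with Pic, a difference of 4.52 ± 0.14 (limma, adjusted p = 1.3e-29). In each of these 3 genes every Lps array lay far above every Pic array. A lack of overlap was a condition of their choice as largest differences.

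The next largest differences were of a more mixed kind. Il12a, the p35 subunit of interleukin-12, averaged 1191 ± 278 on Lps arrays and 78.9 ± 19.6 on Pic arrays (SD, n = 6 each). Sh3bp5, a binding partner of the kinase Btk, averaged 286 ± 45.7 and 21.4 ± 2.18, and with Pic it lay under its unstimulated values of 41.4, 59 and 41.7. Acpp, an acid phosphatase named for the prostate, averaged 2993 ± 639 with Lps and 234 ± 38.2 with Pic. The differences were 3.90 for Il12a and 3.65 for Acpp. For Sh3bp5 the fitted 3.67 is limited by 4 of 6 Pic arrays at the floor, and a second probe set gave 1.92, also called. Marco, a scavenger receptor for bacteria, stood at 208 to 602 on Lps arrays against 25.7 to 39.9 on Pic arrays (difference 3.48). Fst, the activin-binding protein follistatin, stood at 1142 to 1554 against 113 to 200.3 (3.10). Edn1, the vasoconstrictor peptide endothelin-1, stood at 208 to 791 against 20.4 to 106 (3.09). These are among the 12 largest differences of named genes in which the groups did not overlap, a condition of their choice.

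**Figure D2:**
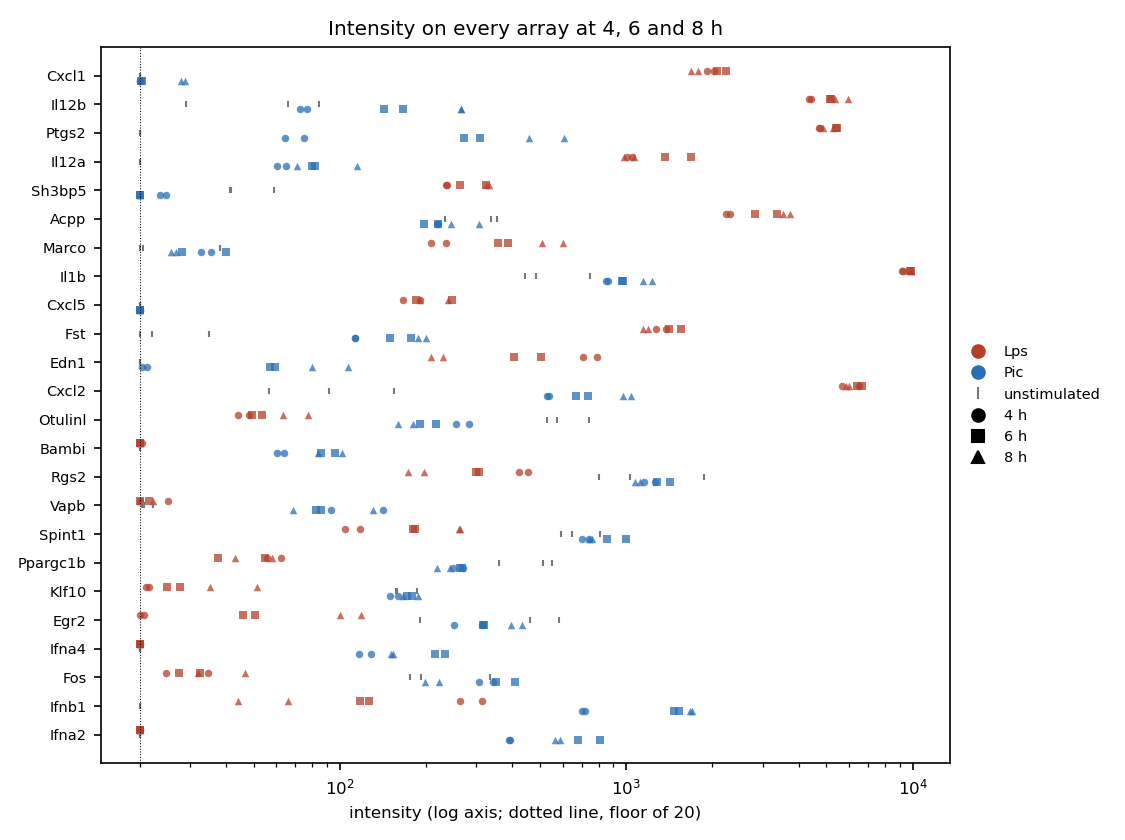
Intensity on each of the 6 Lps arrays (red), 6 Pic arrays (blue) and 3 unstimulated arrays (grey ticks) for the 12 largest named differences each way, on a log axis with the marker shape giving the hour. Cxcl1 lies at 1687 to 2232 with Lps and at 20 to 28.7 with Pic, and Ifna2 lies at the floor with Lps and at 390 to 811 with Pic.

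Among the genes lower with Lps, the interferon genes led. Ifna2, an interferon-α, was at the floor of 20 on all 6 Lps arrays, against 389.9, 575 and 811 (lowest, median, highest) on Pic arrays. It was therefore at least 27.5-fold lower with Lps (fitted difference -4.71 ± 0.06, limma, adjusted p = 8.3e-45). Fos, a subunit of the transcription factor AP-1, had 24.8, 32.3 and 46.8 on Lps arrays and 198, 325 and 408 on Pic arrays, a difference of -3.15 ± 0.13 (limma, adjusted p = 1.3e-25). Its unstimulated values, 192, 333 and 176, were on the side of the Pic arrays. Egr2, an early growth response factor, averaged 59.2 ± 41.1 with Lps and 338 ± 65.2 with Pic (SD, n = 6 each). Klf10, a transcription factor inducible by TGF-β, averaged 30.2 ± 11.5 with Lps and 169 ± 13.6 with Pic. The unstimulated means, 412 for Egr2 and 167 for Klf10, were again on the side of the Pic arrays. For Egr2, however, the single unstimulated array at 6 h stood at 190, between the Lps and Pic arrays of that hour.

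Ppargc1b, a coactivator of mitochondrial gene expression, stood at 37.6 to 62.2 on Lps arrays against 218 to 269 on Pic arrays (difference -2.27). Spint1, an inhibitor of serine proteases, stood at 104 to 262 against 699 to 996 (-2.18). Rgs2, a regulator of G-protein signalling, stood at 172 to 454 against 1074 to 1426 (-2.06). In these 3 genes the groups lay well apart, with every Lps array below every Pic array. Bambi, a decoy receptor of the TGF-β family, was at or next to the floor with Lps (20 to 20.4) and without a ligand (20, 20 and 20), and stood at 60.3 to 102 with Pic. Vapb, a protein of the endoplasmic reticulum membrane, showed the same arrangement, with 20 to 25.2 on Lps arrays and 68.9 to 141 on Pic arrays. For Vapb a second, dimmer probe set gave a difference of -0.09 and was not called, so its value rests on 1 probe set.

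The inflammatory cytokines were the list with the most members higher with Lps. The list was chosen with results of these data known, so its direction is no independent evidence. In it, 11 of its 18 tested members were higher with Lps and 0 lower, against 1.93% and 1.79% of all genes. Its median difference was 1.48, against -0.02 over all genes. No member had a negative difference with an unadjusted limma p under 0.05. Il6, a pleiotropic inflammatory cytokine, averaged 6951 ± 367 with Lps and 849.8 ± 74.9 with Pic (SD, n = 6 each), a difference of 3.03 ± 0.17 (limma, adjusted p = 1.1e-20). Without a ligand it stood at 21.2, 30.4 and 20, close to the floor, and both ligands raised it.

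Il1b, the pyrogenic cytokine interleukin-1β, averaged 9654 ± 338 with Lps and 1006 ± 152 with Pic, and 558 without a ligand. Its difference was 3.27 ± 0.07 (limma, adjusted p = 1.4e-37), and Il1a, its relative interleukin-1α, differed by 2.38 ± 0.07. Tnf, tumour necrosis factor, averaged 4053 ± 872 with Lps and 841 ± 277 with Pic (difference 2.32 ± 0.08). The p19 subunit of interleukin-23, Il23a, was at the floor on all 6 Pic arrays. On Lps arrays Il23a stood at 108 and 129.6 at 4 h, 113 and 104 at 6 h and 30.5 and 31.4 at 8 h, at least 3.68-fold higher over the 3 hours. Ebi3, which pairs with other subunits in interleukins 27 and 35, had means of 1541 with Lps and 503 with Pic. Inhba, the subunit of activin A, and Il18 also rose with Lps over Pic, by 1.51 and 1.44.

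Members that were not called had smaller or dim values. Il15, a growth factor of NK and memory T cells, had means of 1174 with Lps and 1064 with Pic, a difference of 0.12 (95% interval -0.03 to 0.28). Il10, the anti-inflammatory cytokine, lay at the floor on all 6 Pic arrays and on 4 of the 6 Lps arrays, with 27.4 and 26.5 on the Lps arrays at 8 h. Il1rn, the antagonist of the interleukin-1 receptor, had means of 5454 and 3415, a difference of 0.70, while a second bright probe set gave 1.05 and was called.

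Of 5 tested members of the neutrophil list 3 were higher with Lps and 0 lower (1.93% and 1.79% of all genes). The 3 were Cxcl1, Cxcl5 and Cxcl2. Cxcl5 was at the floor on all 6 Pic arrays and at 167 to 246 on Lps arrays, at least 10-fold higher. Cxcl2 averaged 6163 ± 384 with Lps and 748 ± 216 with Pic (SD, n = 6 each), a difference of 3.09 ± 0.07 (limma, adjusted p = 1.3e-36). The platelet chemokines Ppbp and Pf4, on the same list, had differences of 0.06 (95% interval -0.05 to 0.18) and 0.12 (0.04 to 0.19).

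Among 16 other chemokines 3 were higher with Lps and 1 lower (1.93% and 1.79% of all genes). Ccl3, which attracts monocytes and T cells, averaged 9109 ± 567 with Lps and 1797 ± 323 with Pic, a difference of 2.36 ± 0.06 (limma, adjusted p = 6.1e-34). The monocyte chemokine Ccl7 stood at 59.7 to 225 on Lps arrays against 27.3 to 58.9 on Pic arrays (1.70). Ccl4 was called over the 3 hours (1.07), yet at 8 h its Lps arrays stood at 1868 and 1809 against 1929 and 1977 on the Pic arrays, and without 4 h its difference was 0.56 and not called. The ligands of Cxcr3, which are induced by interferon and attract T cells, gave other values. Cxcl10 averaged 7489.6 ± 1011 with Lps and 7882 ± 743 with Pic, a difference of -0.08 whose 95% interval ran from -0.28 to 0.12. Cxcl11 stood lower with Lps than with Pic, with means of 424 and 1008 and a difference of -1.22 ± 0.06 (-0.34 in a dim second probe set, and -0.93 and not called without 8 h). Its unstimulated arrays lay at the floor of 20, so both ligands raised Cxcl11. Cxcl9 had means of 259.6 and 354 (-0.41, not called). Ccl5, already at 8941 without a ligand, had means of 12284 and 11310.

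Type I interferon genes stood lower with Lps. Of the 20 tested members of the list of interferon and its signalling, 4 were lower with Lps and 0 higher (1.79% and 1.93% of all genes). All 4 were interferons: Ifna2, Ifnb1, Ifna4 and Ifna5. With an unadjusted limma p under 0.05 regardless of size, 13 members were lower and 4 higher, where 33.4% and 22.9% of all genes were. The median difference of the list was -0.24. Ifnb1, interferon-β, stood at 312 and 262 on the Lps arrays at 4 h, 117 and 127 at 6 h and 65.8 and 44.1 at 8 h. On Pic arrays it stood at 702 and 719 at 4 h, 1525 and 1468 at 6 h and 1667 and 1696 at 8 h. With each later hour its level was thus lower with Lps and, up to 8 h, higher with Pic. Its difference was -1.31 at 4 h, -3.61 at 6 h and -4.94 at 8 h. Both ligands raised it above the unstimulated arrays, which lay at the floor.

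Ifna4 lay at the floor on all 6 Lps arrays, against 116, 152 and 233 (lowest, median, highest) on Pic arrays, and was at least 8.05-fold lower with Lps. Ifna5 also lay at the floor on all 6 Lps arrays, against 33.3, 60.1 and 66.9 on Pic arrays, and was at least 2.59-fold lower. At a pseudocount of 16 the difference of Ifna5 was -0.92 and not called, which left 3 members of the list called lower. The interferon-α genes are near-identical copies whose probes may detect each other, so which of them was expressed is uncertain. Of the signalling members, the receptor subunits Ifnar1 and Ifnar2 differed by 0.44 and 0.41, and the interferon regulatory factor Irf7 by -0.19 (means 2909.5 with Lps and 3324 with Pic). Irf1, a factor induced by interferon and NF-kB, had means of 1235 and 1921, a difference of -0.65. None of these 4 reached the size threshold.

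Most antiviral genes that interferon induces were raised by each ligand, and none was called between the ligands. Of 41 tested antiviral interferon-stimulated genes, 0 were called between the ligands by limma (3.73% of all genes). With an unadjusted p under 0.05 regardless of size, 8 were higher and 12 lower with Lps (22.9% and 33.4% of all genes). Their differences ran from -0.66 to 0.54 with a median of -0.07, which centring each array on its median moves to 0.01. Against unstimulated cells 26 of 41 were higher with Lps and 27 with Pic, where 7.23% and 4.98% of all genes were. The list medians were 1.43 and 1.34. Both comparisons use the same 3 unstimulated arrays.

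Rsad2 (viperin, an inhibitor of many viruses) averaged 12982 ± 593 with Lps and 13388 ± 799 with Pic (SD, n = 6 each), against 2018 without a ligand. The 95% interval of its difference was -0.20 to 0.11. Ifit1, which binds viral RNA, averaged 7064 ± 799.6 with Lps and 7679 ± 796 with Pic (-0.28 to 0.03). Mx1, a GTPase that blocks influenza virus in mice, had means of 4736 and 5121 (-0.25 to 0.02). In each of these genes the arrays of the ligands overlapped. At the lower end of the list stood Oas1b, an oligoadenylate synthetase family member, with 103 to 129 on Lps arrays against 136 to 239 on Pic arrays (-0.66). At the upper end stood Trim21, a cytosolic antibody receptor, with means of 1461 and 1004 (0.54).

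The 9 tested interferon-induced GTPases, which act against intracellular parasites and bacteria, gave 0 calls by limma (3.73% of all genes). At an unadjusted limma p under 0.05, 1 member was higher and 4 lower (22.9% and 33.4% of all genes). All 9 were called above unstimulated cells under each ligand, where 7.23% of all genes were with Lps and 4.98% with Pic. The list medians were 1.95 for Lps and 1.97 for Pic. Iigp1 averaged 3193 ± 569 with Lps, 3869.8 ± 665 with Pic and 172 without a ligand, and its difference had an interval of -0.63 to 0.07.

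**Figure D3:**
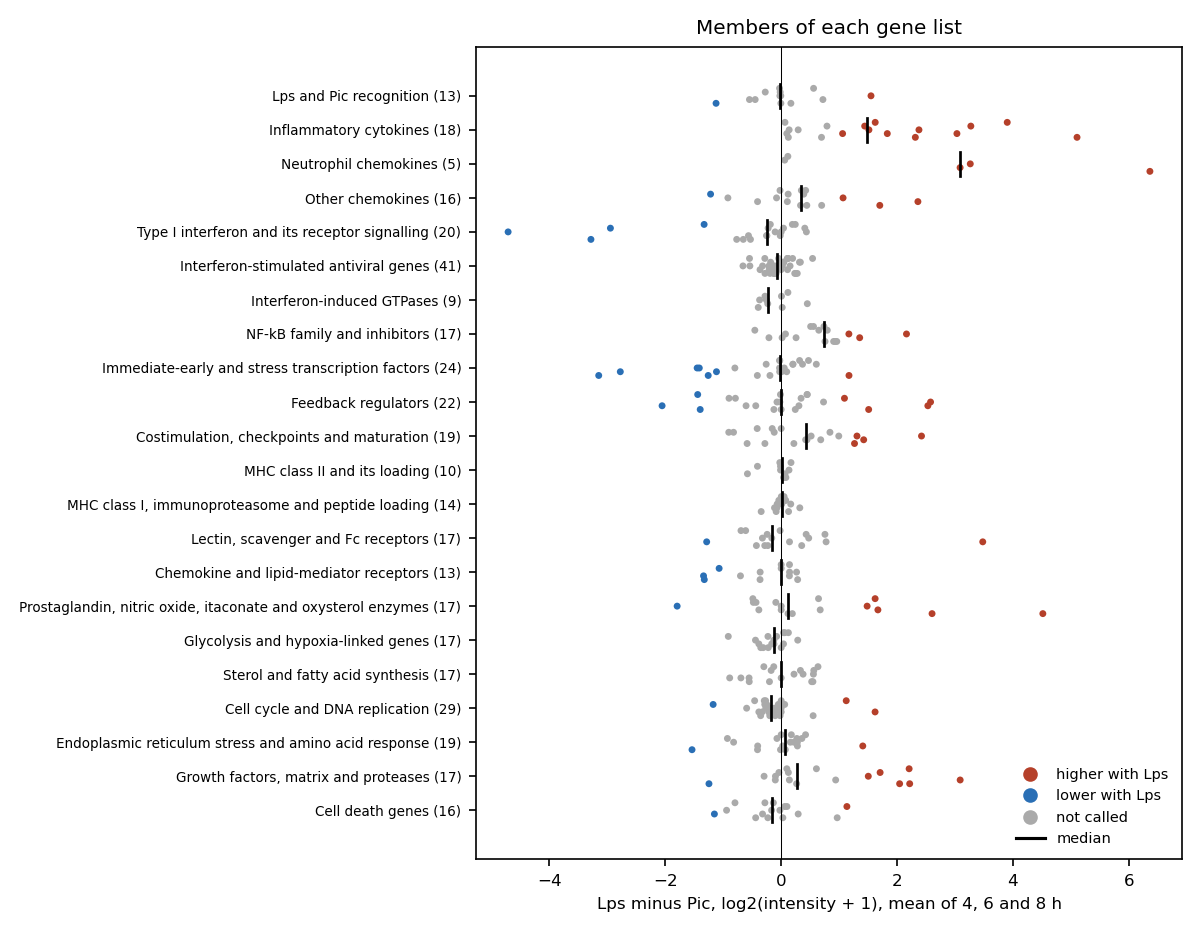
Difference between ligands (horizontal axis, Lps minus Pic on the log2(intensity + 1) scale, mean of 4, 6 and 8 h) for each tested member of 22 gene lists, with the number tested beside the list's name and a black line at the list's median. The inflammatory cytokines have 11 of 18 members called higher with Lps, and the 41 antiviral genes lie between -0.66 and 0.54 with none called.

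The NF-kB factors and inhibitors were mostly on the Lps side by less than the size threshold. Of 17 tested, 3 were higher with Lps and 0 lower (1.93% and 1.79% of all genes), with a median difference of 0.74. Centring each array gave 5. At an adjusted limma p under 0.05 of any size, 13 were higher and 2 lower (21% and 31.3% of all genes). Nfkbiz, the inducible coactivator IκBζ, averaged 1834 ± 601 with Lps and 393 ± 61.2 with Pic (SD, n = 6 each), a difference of 2.16 ± 0.13 (limma, adjusted p = 3.2e-19). Rel, the subunit c-Rel, stood at 439 to 725 on Lps arrays against 209 to 259.9 on Pic arrays (1.36). Cflar, an inhibitor of caspase-8, had a difference of 1.17, but its other 3 probe sets gave 0.56 to 0.65 and were not called, and without 4 h its difference was 0.94. By hour, 9 of the 17 were higher with Lps at 4 h, 5 at 6 h and 1 at 8 h, where 3.0%, 2.22% and 1.61% of all genes were. The F test of the change with the hour, described below, called 4 of the 17 (3.82% of all genes). Relb, the partner of the p52 subunit, and Birc3, an inhibitor of apoptosis, had negative differences of -0.45 and -0.21.

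Immediate-early and stress transcription factors gave more calls on the lower side. Of 24 tested, 6 were lower with Lps (Fos, Egr2, Klf4, Jun, Egr1 and Klf2) and 1 was higher (Cebpd), where 1.79% and 1.93% of all genes were. At a pseudocount of 16, 4 were lower and 1 higher. Jun, the partner of Fos in AP-1, averaged 86.4 ± 9.05 with Lps and 233 ± 32.5 with Pic, against 95.8 without a ligand (difference -1.41 ± 0.08). Egr1, another early growth response factor, lay at the floor on 5 of the 6 Lps arrays and at 39.2 to 56.8 on Pic arrays (-1.26). Without a ligand it stood at 20.4, 20 and 20, on the side of the Lps arrays. At a pseudocount of 16 its difference was -0.86 and not called. Klf4, a Krüppel-like factor of monocyte differentiation, stood at 31.8 to 80.9 against 109 to 215 (-1.45), under its unstimulated values of 320.1, 221 and 280 with both ligands. The stress factor Atf3 had means of 1989.7 and 2029.5, with a 95% interval of the difference from -0.12 to 0.06. The list's median was -0.03, next to the -0.02 of all genes.

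Feedback regulators split both ways. Of 22 tested, 4 were higher with Lps and 3 lower (1.93% and 1.79% of all genes). Socs3, a suppressor of signalling by interleukin-6 and related cytokines, averaged 716 ± 82.5 with Lps and 121 ± 28.1 with Pic (SD, n = 6 each), a difference of 2.58 ± 0.10 (limma, adjusted p = 4.5e-26). Zc3h12a, the endonuclease Regnase-1 that destroys Il6 and Il12b messenger RNA, stood at 346 to 524 against 59.4 to 94.6 (2.53). The dual-specificity phosphatases Dusp2 and Dusp14, which act on MAP kinases, rose by 1.51 and 1.09. Dusp1, of the same family, had means of 835 and 813. On the lower side were Rgs2, Tsc22d3 and Zfp36l1. Tsc22d3 (GILZ, a glucocorticoid-induced repressor) stood at 27.7 to 37.9 with Lps and 76.9 to 102 with Pic, both under its unstimulated values of 135, 234 and 185, while of its other probe sets one gave -1.13, also called, and one next to the floor gave -0.12. Zfp36l1, which destabilises messenger RNA with AU-rich elements, had 231 and 234 at 4 h and 776 and 781 at 8 h with Lps, against 1422 and 1153 at 4 h and 1089.9 and 1074 at 8 h with Pic, and without 4 h its difference was -0.87.

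Costimulatory genes, which instruct T cells, were higher with Lps in 4 of 19 tested and lower in 0 (1.93% and 1.79% of all genes). At an unadjusted limma p under 0.05 of any size, 11 were higher and 6 lower (22.9% and 33.4% of all genes). At 4 h alone 7 were called higher and 1 lower (3.0% and 3.13% of all genes). At 8 h 0 were called either way (1.61% and 1.65%). The list's median was 0.42. Cd40 averaged 4143 ± 375 with Lps and 1767 ± 439 with Pic (SD, n = 6 each), against 104 without a ligand. Its difference was 1.27 ± 0.07 (limma, adjusted p = 8.6e-21). Cd80, a ligand of Cd28, averaged 943 ± 271 and 345 ± 66.1 (1.42), and a second probe set gave 1.03 while a dim further one gave -0.09. Cd70, the ligand of Cd27, stood at 195 to 473 against 25.4 to 124 (2.42). Slamf1, an adhesion receptor, rose by 1.31, with 0.78 and 0.13 in its dimmer probe sets. Cd86, the other ligand of Cd28, was not called over the 3 hours (0.52): it stood at 2425 and 2460 with Lps and 1297 and 1087 with Pic at 4 h, and at 2458 and 2403 with Lps and 2454 and 2207 with Pic at 8 h. The checkpoint ligand Cd274 (PD-L1) and the maturation marker Cd83 had differences of -0.15 (-0.26 to -0.05) and -0.12 (-0.25 to 0.01).

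Antigen presentation gave 0 calls by limma (3.73% of all genes) among 10 tested genes of MHC class II and its loading. At an unadjusted limma p under 0.05, 3 were higher and 2 lower. It also gave 0 among 14 genes of MHC class I and peptide loading, with 3 each way, where 22.9% of all genes were higher and 33.4% lower. H2-Ab1, a class II chain, had means of 5490.1 with Lps and 5243 with Pic, an interval of 0.02 to 0.12. H2-K1, a class I heavy chain, had means of 6921 and 7336 (-0.14 to -0.03).

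The genes that sense the ligands gave 2 calls among 13 tested, 1 each way, where 1.93% of all genes were higher and 1.79% lower. Cd14, the co-receptor that hands lipopolysaccharide to TLR4, averaged 5319 ± 150.3 with Lps and 1825 ± 205 with Pic (SD, n = 6 each), a difference of 1.55 ± 0.04 (limma, adjusted p = 6.3e-32). Without a ligand it stood at 1519, 2431 and 2273, on the level of the Pic arrays. Tlr4 itself stood at 125 to 181 on Lps arrays against 274 to 352 on Pic arrays, a difference of -1.12 ± 0.07, and at 454, 385 and 395 without a ligand. Tlr3, the endosomal sensor of double-stranded RNA, averaged 422 ± 71.6 with Lps and 519.5 ± 131 with Pic against 55.2 without a ligand, so both ligands raised it. The cytosolic sensor Ifih1 had means of 3990.3 and 4014 (interval of the difference -0.11 to 0.10), and the adaptor Myd88 had 1704 and 1732 (-0.11 to 0.05).

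Other surface receptors were called in few cases, where 1.93% of all genes were higher with Lps and 1.79% lower. Of 17 lectin, scavenger and Fc receptors, Marco was higher with Lps and Stab1, an endocytic receptor also called stabilin-1, was lower, with 34.9 to 113 on Lps arrays against 139 to 167 on Pic arrays (-1.29, and -0.95 without 4 h). Of 13 chemokine and lipid-mediator receptors, 3 were lower with Lps and 0 higher. Ccr2, the receptor that brings monocytes out of bone marrow, averaged 299.6 ± 58.6 with Lps and 776 ± 221 with Pic (SD, n = 6 each), and 1825 without a ligand (difference -1.34 ± 0.09). A dim second probe set of Ccr2 gave -0.66 and a brighter one -1.28. Cysltr1, a receptor for cysteinyl leukotrienes, stood at 116 to 196 against 321 to 454 (-1.33), and its unstimulated values of 309.7, 406 and 396 lay with the Pic arrays. Ptger2, a receptor for prostaglandin E2, had means of 34.3 and 69.1 (-1.07). Its arrays overlapped between ligands, and its difference was -0.96 without Pic replicate 1 at 6 h and -0.64 without 4 h, not called in either case.

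Enzymes of inflammatory mediators were higher with Lps in 5 of 17 tested and lower in 1 (1.93% and 1.79% of all genes). Besides Ptgs2, these included Ptges, which makes prostaglandin E2 from its product, with 116 to 229.7 on Lps arrays against 33.1 to 96.4 on Pic arrays (1.67, and 0.64 in a second probe set). Nos2, the inducible nitric oxide synthase, stood at 80.7 to 209 against 20 to 28.8 (2.60 ± 0.07; limma, adjusted p = 6.3e-32). Slc7a2, a carrier of its substrate arginine, averaged 2347 ± 119 and 786 ± 218 (1.62), and Arg2, which breaks arginine down, rose by 1.48. Thus the synthesis enzymes of prostaglandin E2 and of nitric oxide stood on the same side. Cyp27a1, a sterol 27-hydroxylase, was the lower member, with 27.6 to 65.3 against 127 to 197 (-1.80). Ch25h, which makes 25-hydroxycholesterol, averaged 2617 ± 613 with Lps and 1633 ± 345 with Pic, a difference of 0.67 that did not reach the size threshold. Acod1, which makes itaconate, had means of 9352 and 8646 (0.03 to 0.21).

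Growth factors, matrix genes and proteases were higher with Lps in 6 of 17 tested and lower in 1 (1.93% and 1.79% of all genes). Besides Edn1, Lox, which cross-links collagen, stood at 179 to 355 on Lps arrays against 35.5 to 70.1 on Pic arrays (2.22). Mmp13, a collagenase, averaged 2589 ± 78.4 and 566 ± 90.5 (2.21 ± 0.10; limma, adjusted p = 3.4e-24). Ereg, an epidermal growth factor family ligand, stood at 75.5 to 127 against 20 to 28.2 (2.04), and Timp1, an inhibitor of metalloproteinases, at 433 to 609.9 against 149.5 to 169 (1.71). Serpinb2, an inhibitor of plasminogen activators, rose by 1.5. The lower member, the TGF-β-induced matrix protein Tgfbi, had means of 2266 and 5227 (-1.25).

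Of 29 cell cycle genes 2 were higher with Lps and 1 lower, where 1.93% and 1.79% of all genes were. The G1 cyclins went opposite ways, with Ccnd2 at means of 5029.9 with Lps and 2340.2 with Pic (1.12) and Ccnd1 at 76.4 and 179 (-1.17). All 5 other probe sets of Ccnd2 and both others of Ccnd1 gave calls in the same direction, while without 8 h the difference of Ccnd1 was -0.99. Tyms, thymidylate synthase, rose by 1.62, where a dim second probe set gave 0.15. Of 16 cell death genes 1 was higher and 1 lower (1.93% and 1.79% of all genes). Nlrp3, the inflammasome sensor, rose by 1.13 (455 to 679 on Lps arrays against 219 to 304 on Pic arrays, and 0.93 without 4 h). Bcl2l11, the death-promoting protein Bim, was lower (-1.15), with means of 649 and 1271, yet its other probe sets gave 0.60, -0.99, -0.81 and -0.78, none of them called, and it was -0.88 without 6 h and -0.92 without 8 h. Of 19 genes of endoplasmic reticulum stress and the amino acid response 1 was higher and 1 lower (1.93% and 1.79% of all genes). Asns, asparagine synthetase, was lower with Lps at 47 to 58.3 against 118 to 199 (-1.54). Slc7a11, the cystine carrier, was higher at 1128 to 1316 against 382 to 553 (1.41). Without a ligand, Asns stood at 33.3, 28.9 and 42.9, below both ligands.

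Metabolic lists gave 0 calls by limma (3.73% of all genes). Of 17 glycolysis and hypoxia-linked genes, 2 were higher and 11 lower at an unadjusted limma p under 0.05. Of 17 genes of sterol and fatty acid synthesis, 8 were higher and 7 lower at the same threshold. Of all genes 22.9% were higher and 33.4% lower at that threshold. The largest differences there were -0.91 for Vegfa, the angiogenic growth factor, and -0.89 for Abcg1, a cholesterol exporter.

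Against unstimulated cells, Lps raised 762 genes (7.23%) and lowered 907 (8.6%), and Pic raised 525 (4.98%) and lowered 312 (2.96%). The median array intensity was 0.18 lower with Lps and 0.10 lower with Pic than without a ligand on the log2 scale. After each array was centred on its median, these counts were 926 and 590 for Lps and 623 and 213 for Pic. The counts that follow reuse the arrays that chose the genes and are a description. Of the 204 genes higher with Lps than with Pic, 186 were above unstimulated cells with Lps and 62 with Pic, and the medians over all 204 were 2.06 units with Lps and 0.53 with Pic. In 155 of the 204 the unstimulated mean was the lowest of the 3 and in 0 it was the highest. Of the 189 genes lower with Lps than with Pic, 136 were below unstimulated cells with Lps, where the median of the 189 was -1.63, while Pic put 42 below and 26 above, with a median of -0.23. In 114 of the 189 the unstimulated mean was the highest of the 3 and in 18 the lowest. Genes lower with Lps thus included some that were below unstimulated cells with Lps, such as Spint1, and some that were above them with Pic, such as Bambi. For Spint1 the changes against unstimulated cells were -1.95 with Lps and 0.23 with Pic, and for Bambi they were 0.00 and 1.96.

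The difference between the ligands changed over the 4 h between the first and the last hour. By limma's F test with an adjusted p under 0.05 and a range of at least 1 between the 3 differences, 403 genes changed (3.82%), and 306 of them had a smaller difference at 8 h than at 4 h. At 4 h 316 genes were higher with Lps (3.0%) and 330 lower (3.13%). At 6 h the counts were 234 (2.22%) and 246 (2.33%), and at 8 h 170 (1.61%) and 174 (1.65%). Array medians at 4 h were 0.15 lower with Lps than with Pic on the log2 scale, and centring each array gave 412 higher and 210 lower at that hour, so the split at 4 h depends on the scaling. The 119 genes higher at both 4 and 8 h are 37.7% of the list at 4 h and 70.0% of that at 8 h. The 87 genes lower at both are 26.4% of the list at 4 h and 50% of that at 8 h.

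Edn1 narrowed most among the named genes that stayed higher with Lps. It stood at 791 and 709 with Lps and 21.3 and 20.4 with Pic at 4 h, and at 229 and 208 with Lps and 106 and 80.1 with Pic at 8 h, so the difference was 5.10 at 4 h and 1.23 at 8 h (limma F test, adjusted p = 1.3e-15). Cd70 narrowed likewise, with differences of 3.82 at 4 h and 0.79 at 8 h. Ptgs2 stood at 4701 and 4737 at 4 h and 5287 and 4868 at 8 h with Lps, against 75 and 64.1 at 4 h and 458 and 607 at 8 h with Pic, and its difference was 6.07 at 4 h and 3.26 at 8 h. Tnf had 4253 and 4898 with Lps and 483 and 499.7 with Pic at 4 h, and 2938 and 2978 with Lps and 1121 and 1015 with Pic at 8 h. In Edn1, Cd70 and Tnf the Lps arrays were lower at 8 h than at 4 h and the Pic arrays higher, while in Ptgs2 the Pic arrays were higher and the Lps arrays close. Marco went the other way, with differences of 2.66 at 4 h and 4.35 at 8 h.

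In 41 of the 403 genes the difference turned sign between 4 and 8 h with both values at least 0.5 in size. Plagl1, a zinc-finger transcription factor, stood at 342 and 287 with Lps and 120.3 and 104 with Pic at 4 h, at 183 and 178 with Lps and 257 and 262 with Pic at 6 h, and at 87.3 and 62.4 with Lps and 477 and 526 with Pic at 8 h. Its difference of 1.48 at 4 h and -2.75 at 8 h (limma F test, adjusted p = 7.1e-32) made it the 1 gene called in opposite directions at these hours. Rgcc, a regulator of the cell cycle, had 0.73 and -2.73, and Gem, a small GTPase, 2.57 and -0.53. For these 3 genes the mean over the hours is not the value at any 1 hour. The mean for Gem, 1.04, was 0.27 without 4 h, 0.83 at a pseudocount of 16, 0.96 without Pic replicate 2 at 4 h and 0.97 without Pic replicate 2 at 6 h, and was called in none of these. It was not called either in a fit of the 12 arrays alone with time as an additive block (limma, adjusted p = 0.088). That model differs from the main fit, as it leaves a change of the difference with the hour in its error. Both Plagl1 and Rgcc were raised above unstimulated cells by each ligand, with Lps high at 4 h and Pic high at 8 h.

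Other genes were lower with Lps at 4 h by more than at 8 h, or at 4 h alone. P2ry6, a receptor for uridine diphosphate, had 34.6 and 44.1 with Lps and 232 and 222 with Pic at 4 h, and 274 and 284 with Lps and 299 and 276 with Pic at 8 h, against 620, 682 and 532 without a ligand. Its mean difference over the hours, -1.13, was -0.44 without 4 h. Rab7b, a GTPase of late endosomes, had 78.8 and 92.4 with Lps and 566 and 584 with Pic at 4 h, and 406 and 398 with Lps and 630.3 and 592 with Pic at 8 h. Map3k14, the kinase NIK of non-canonical NF-kB signalling, had differences of -2.16 at 4 h and 0.34 at 8 h. Sdhaf1, an assembly factor of succinate dehydrogenase, had -1.39 and 0.44. In these 4 genes both Lps arrays at 8 h stood above both at 4 h, and Pic arrays at 8 h stood above those at 4 h in P2ry6 and Rab7b and below them in Map3k14 and Sdhaf1.

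**Figure D4:**
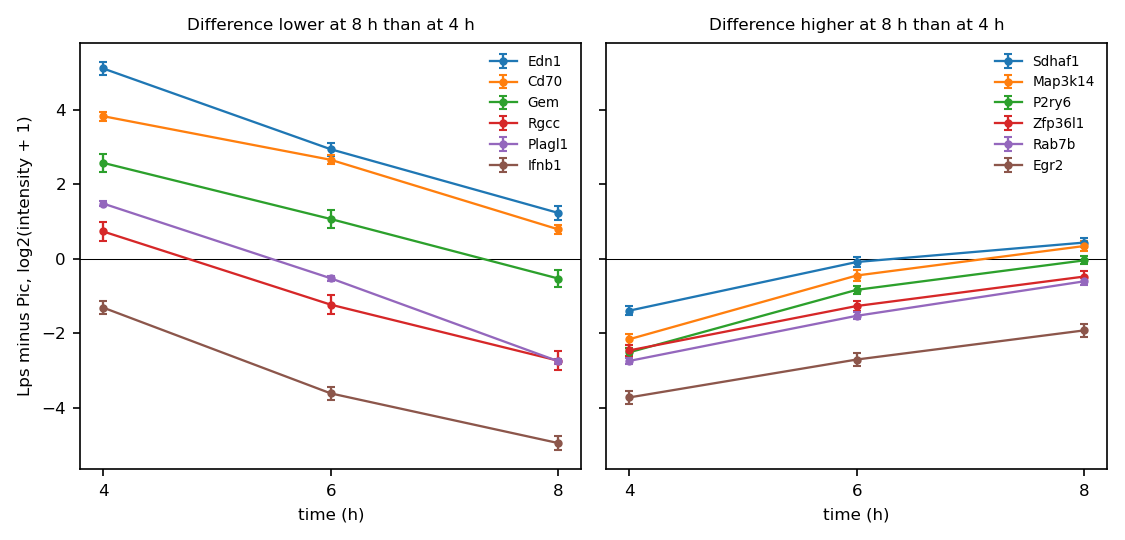
Difference between ligands (Lps minus Pic on the log2(intensity + 1) scale, bars give the SE) at 4, 6 and 8 h for the 6 named genes whose difference fell most from 4 to 8 h (left) and the 6 whose difference rose most (right). Plagl1 crosses zero, from 1.48 to -2.75, and P2ry6 closes from -2.51 to -0.04.

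Arrays at other hours give the same genes in samples outside the 12 compared above. They did share in the spread of the fit and in the choice of probe sets. At 0.5 to 2 h Lps was higher in 87 genes (0.825%) and lower in 4 (0.0379%). Without 0.5 h these early counts were 140 and 14, and without 2 h they were 43 and 2. At 12 to 24 h Lps was higher in 204 (1.93%) and lower in 159 (1.51%). Over all genes the median difference was -0.01 at 0.5 to 2 h and 0 at 12 to 24 h. Of the 204 genes higher with Lps at 4 to 8 h, 179 had a positive difference early and 47 were called so. Late, 185 had a positive difference, 104 were called so, and Hcar2, the niacin receptor, was called the opposite way (1.58 at 4 to 8 h and -1.01 late). Hcar2 was named after its values were seen. Of the 189 lower genes, 146 had a negative difference early with 3 called so, and 172 late with 56 called so. The medians of the lower genes were -0.15 early, -1.25 at 4 to 8 h and -0.64 late, so the early arrays held little of this difference.

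By gene, Cxcl1, Il12b and Ptgs2 were called higher with Lps in both other windows as well. Cxcl1 had an early difference of 4.50 and a late one of 5.83, Il12b 2.25 and 4.11, and Ptgs2 4.30 and 4.30. Marco differed by 0.09 early and 5.59 late, and was called in the late window. Fos and Egr1 were called the opposite way early, with differences of 1.06 and 3.16: Egr1 averaged 952 with Lps and 62.8 with Pic at 0.5 to 2 h. Ifnb1 averaged 305 with Lps and 114 with Pic early, a difference of 0.88 that was not called, and 23.8 and 268 late, a difference of -2.46. The interferon-stimulated genes that gave 0 calls at 4 to 8 h gave some late. At 12 to 24 h 4 of 41 antiviral genes were lower with Lps, where 1.51% of all genes were. The 4 were Ifit2 (-1.02), Oas2 (-1.16), Cmpk2 (-1.03) and Daxx (-1.17). Of the 9 GTPases 3 were lower then (1.51% of all genes), Iigp1 (-1.57), Irgm2 (-1.0) and Tgtp1 (-1.02). The difference between these windows was not tested.

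**Figure D5:**
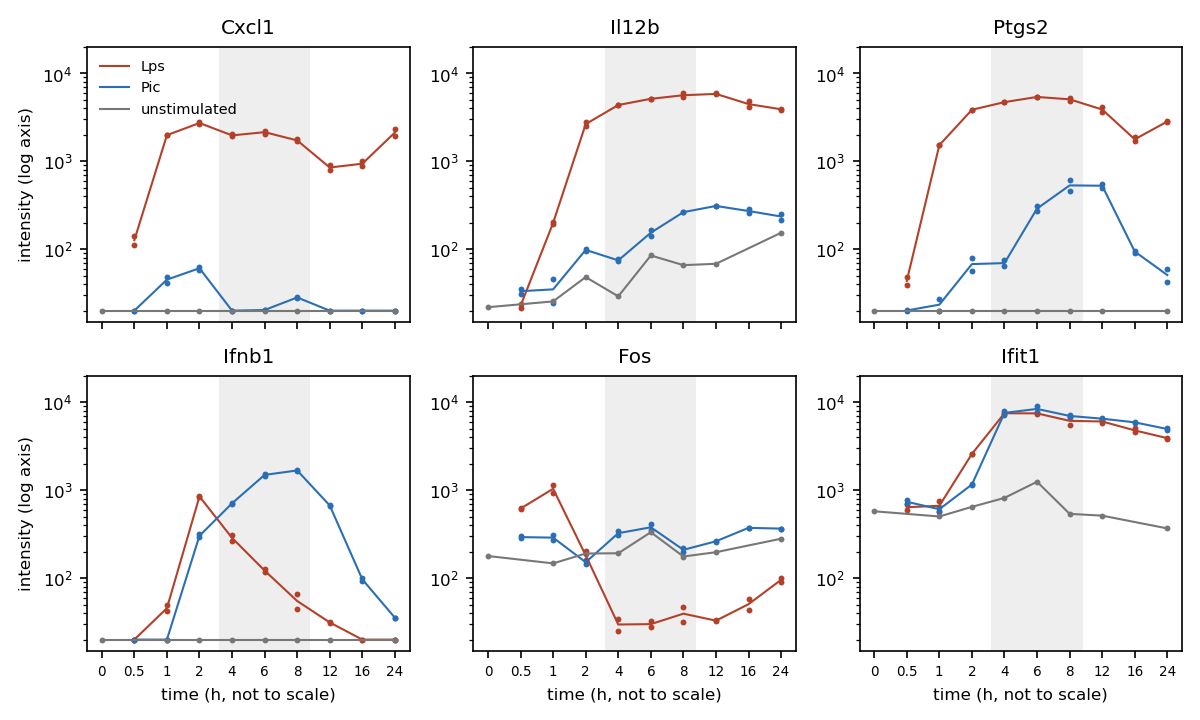
Intensity (log axis) against time in hours (not to scale) with Lps (red), Pic (blue) and no ligand (grey) for 6 genes; points are single arrays, lines join their means and the grey band marks 4 to 8 h. Cxcl1, Il12b and Ptgs2 are higher with Lps in the band, Ifnb1 and Fos are lower, and Ifit1 has means of 7064 with Lps and 7679 with Pic.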

How the data were processed

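Total RNA of cultured mouse bone marrow dendritic cells was extracted with a miRNEASY column kit and hybridised to Affymetrix mouse HT arrays, per the labels' protocols. The authors deposited linear intensities of 18858 probe sets, from 20 to 16401.5. The submitters' processing notes name RMA without a version. How its log values were returned to a linear scale and set to a floor of 20 is left unsaid by those notes. The precision is limited by the number of arrays.

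From the deposited intensities log2(intensity + 1) was computed. The 4409 probe sets that never left the floor were dropped, and a gene with several probe sets was represented by the one with the highest mean over the 96 arrays. Symbols came from GEO's platform annotation: 15044 probe sets had 1 symbol, 257 several and 3557 none, and 15024 were matched to RefSeq (GRCm38.p6). The linear model of limma 3.58.1 in R 4.3.3 was fitted to all 96 arrays with a mean for each ligand and hour, 53 groups and 43 residual degrees of freedom, and each contrast was taken within hours. Each unstimulated array had a mean of its own, so the spread of the other groups stands in for that of the unstimulated cells. Tests were two-sided. A bound ("at least") sets the geometric mean of the bright group against the floor, while the other mean intensities given are arithmetic. The pipeline was tested on simulated data with 200 changed genes among 10543 and recovered 100% of those changed by 1.5 and by 3 log2 units, with 0 false calls. The changed genes were drawn from bright genes only, the noise was Gaussian and independent, and unchanged genes had equal means with both ligands. The simulation therefore does not show how dim genes or arrays with shared errors fare.

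Same-numbered Lps and Pic arrays deviated from their group means with correlations of 0.03, -0.12 and -0.23 at 4, 6 and 8 h. The numbers were therefore not taken as pairs in the main fit.

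The members, the 22 gene lists and the tests were chosen with earlier results of these data known. Named genes are the 12 largest non-overlapping differences each way, up to 5 called members of each list, a panel of 25 genes, the 6 largest changes of the difference each way from 4 to 8 h, and list members that are given as not called. Of the panel, 1 gene is not reported here. Contrasts with unstimulated cells and the counts at single hours under the alternatives were added after seeing the data. Alternatives changed the pseudocount, the filter, the scaling, the choice of probe set, the model and the arrays left out.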

Additional observations from a re-analysis of the deposited data

Results flagged for a closer look

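For 31 named genes the difference between Lps and Pic itself changed between 4, 6 and 8 h (limma F test, adjusted p under 0.05, range at least 1). The values below are the difference at 8 h minus that at 4 h in log2 units, negative where Lps lost ground against Pic. No explanation was tested.

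Among cytokines and chemokines the change was -1.74 for Tnf, -1.44 for Il12b, -1.90 for Il23a, -2.16 for Ccl4, -1.09 for Cxcl11 and -3.63 for Ifnb1. Among regulators of transcription and signalling it was -1.59 for Nfkbiz, -1.16 for Zc3h12a, -1.80 for Klf4, -1.11 for Rgs2 and -4.23 for Plagl1, against 1.02 for Fos, 1.80 for Egr2, 2.50 for Map3k14 and 1.98 for Zfp36l1. Among surface molecules and receptors it was -3.03 for Cd70 and -1.46 for Cd80, against 1.68 for Marco, 1.47 for Stab1, 1.40 for Ptger2 and 2.47 for P2ry6. Among the rest it was -2.80 for Ptgs2, -3.87 for Edn1, -1.14 for Cyp27a1, -1.47 for Bcl2l11, -3.46 for Rgcc and -3.10 for Gem, against 1.17 for Spint1, 1.25 for Otulinl, 2.13 for Rab7b and 1.83 for Sdhaf1.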

How the results depend on the processing

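The counts of genes at 4 to 8 h, 204 higher and 189 lower with Lps, stayed within 1.5 times under each alternative run. They were 176 and 129 at a pseudocount of 16, 229 and 154 after centring every array, and 211 and 164 with quantile normalization. The 12 arrays alone, with time as an additive block, gave 203 and 188. Without 8 h the counts were 240 and 246. Leaving out 1 array gave 199 to 212 higher and 184 to 197 lower, 390 to 436 for the change with time, 294 to 332 higher and 306 to 370 lower at 4 h, 234 to 247 and 246 to 259 at 6 h, and 170 to 180 and 174 to 189 at 8 h. Counts that moved more were the early ones (87 higher and 4 lower), which were 140 and 14 without 0.5 h and 43 and 2 without 2 h, with 2 lower at a pseudocount of 16. At that pseudocount 201 genes were lower at 4 h (330), 185 were below unstimulated cells with Pic (312) and 240 changed with time (403). With each array centred 210 were lower at 4 h and 590 were below unstimulated cells with Lps (907). Fewer dim genes reach the size threshold at the larger pseudocount by its construction. For the others the cause was not tested.

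Of 83 named genes, 3 changed sign in 1 setting each: Cxcl10 to 0.0014 with each array centred, Sdhaf1 to 0.18 without 4 h and Plagl1 to 0.48 without 8 h. Gem, Rgcc, Ptger2, Ccl4, P2ry6, Bcl2l11, Cflar, Ifna5, Egr1, Slamf1, Stab1, Nlrp3, Zfp36l1, Cxcl11 and Ccnd1 lost their call in some setting. With the replicate number as a block beside time, 199 genes were higher and 187 lower, 347 changed with time, 87 and 4 were called early, and 204 and 159 late. Dim genes are limited by the floor, where 33.6% to 34.6% of probe sets lay on the 12 arrays.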

Other observations

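Called genes outside the lists were named here after their values were seen, so they stand for themselves and for no group. Hdc, which makes histamine, averaged 314 ± 49.2 with Lps and 44.4 ± 17.6 with Pic (SD, n = 6 each), a difference of 2.88 ± 0.09, and 20 without a ligand. Pla1a, a phospholipase, averaged 856 ± 149.8 and 129.9 ± 36.1 (2.74). The cytokine lymphotoxin-α, Lta, averaged 140.2 ± 12.8 and 34.7 ± 17.4 (2.11), and Penk, the precursor of enkephalins, 139.8 ± 29.9 and 26.6 ± 2.35 (2.33). Slc40a1, the iron exporter ferroportin, averaged 155 ± 12.4 with Lps and 41.5 ± 15.5 with Pic, with an unstimulated mean of 150.4 on the level of the Lps arrays. Cp, the copper protein ceruloplasmin, rose by 1.74 and the zinc carrier Slc39a14 by 1.76. Lcn2, which binds bacterial iron carriers, averaged 1324 ± 275 and 410.1 ± 47.8 (1.67, and 3.58 at 12 to 24 h), and Trem1, a receptor that amplifies inflammation, rose by 1.91.

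Among the genes lower with Lps, Cd300lf, an inhibitory receptor of myeloid cells, averaged 540.4 ± 100 with Lps and 1635 ± 235 with Pic (-1.60 ± 0.08). Cd200r1, a receptor that restrains myeloid cells, averaged 344 ± 67.5 and 1011 ± 63.6 (-1.57), with 1368 without a ligand. Both chains of the interleukin-6 receptor were lower, Il6ra by a difference of -1.23 and Il6st (gp130) by -1.47. The transcription factor Batf averaged 324 ± 91.4 with Lps and 59.6 ± 12.3 with Pic (2.40), whereas its relative Batf3 averaged 187 ± 18.8 and 409.7 ± 89.1 (-1.10). Gbp8, an interferon-induced guanylate-binding protein that was on no list, averaged 135 ± 18.5 with Lps, 433 ± 59.1 with Pic and 156 without a ligand (-1.67).

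Some values fall outside these patterns. Vapb lay at 43.9 to 233 on all 18 Pic arrays and at most at 30.2 on the arrays of every other ligand and of unstimulated cells, from 0.5 h on. It is 1 of 7 genes with a difference of at least 1 in size at each of the 9 hours, with Socs3, Ptgs2, Nfkbiz, Cxcl1, Tnf and Cxcl2. At 12 to 24 h 1 probe set without a gene name was called the opposite way, with -1.34 at 4 to 8 h and 1.80 late.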
